A study of Mus musculus with 4 samples.

Results

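The interleukin-1 system was followed through the immune cells of EO771 mammary tumors as 9 genes, taken as a list of names, of the 32285 genes counted. They are the ligands Il1a, Il1b and Il18, the receptor antagonist Il1rn, the signalling receptor Il1r1 with its accessory chain Il1rap, the decoy receptor Il1r2, and Casp1 and Nlrp3 of the inflammasome. EO771 is a mouse mammary carcinoma line, grown here in the mammary fat pad of female C57BL/6 mice, and viable CD45+ cells were sorted for 3′ single-cell RNA sequencing. All mice carried the floxed Csf1r allele (Csf1rfl/fl), and those of the second genotype also carried Cre under the Lyve1 gene (Lyve1CreCsf1rfl/fl), which removes the receptor for CSF-1 from cells that have expressed LYVE-1. Both genotypes had 2 tumors. A tumor of either genotype went into each of the 2 Chromium runs, and hashtag antibodies marked which tumor a cell came from. The labels number the runs as replicates. P-values of the genotype fits without a block measure the spread between these 4 tumors, with dispersion shared across genes. Those of fits with a block measure the spread left once the level of each tumor or run is taken out.

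The ligands of this family act through a shared logic. IL-1α and IL-1β bind the receptor IL-1R1, which recruits IL-1RAP and signals through MyD88 to NF-kB, whereas IL-1RA, the product of Il1rn, occupies the same receptor without signalling and IL-1R2 binds ligand but has no signalling domain. IL-1β and IL-18 are made as precursors that caspase-1 cuts, and caspase-1 is itself activated on inflammasomes such as the one that NLRP3 nucleates. In tumors, myeloid cells are the best known source of IL-1β, which drives chemokine production and the recruitment of neutrophils. A transcript level therefore says nothing of how much mature cytokine was released.

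All 9 genes were matched by symbol to RefSeq promoter windows of the assembly GRCm38.p6, each spanning 250 bases before and 50 bases after a transcription start, 5′ to 3′ on the strand of the gene. The windows of the 6 genes whose level was highest in neutrophils are shown, since the report turns on them, and Il1rn and Nlrp3, which have 3 and 2 windows, are shown by their first. Capitals mark matches on either strand to the motifs spelled out after the sequences.
Il1a, chr2:129309923-129310222, minus strand: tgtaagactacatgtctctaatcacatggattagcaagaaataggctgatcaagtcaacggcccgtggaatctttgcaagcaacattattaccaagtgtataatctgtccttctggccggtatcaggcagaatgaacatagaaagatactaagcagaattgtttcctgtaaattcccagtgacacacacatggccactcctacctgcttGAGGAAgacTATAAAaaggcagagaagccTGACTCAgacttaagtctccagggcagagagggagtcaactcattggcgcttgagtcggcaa
Il1b, chr2:129371090-129371389, minus strand: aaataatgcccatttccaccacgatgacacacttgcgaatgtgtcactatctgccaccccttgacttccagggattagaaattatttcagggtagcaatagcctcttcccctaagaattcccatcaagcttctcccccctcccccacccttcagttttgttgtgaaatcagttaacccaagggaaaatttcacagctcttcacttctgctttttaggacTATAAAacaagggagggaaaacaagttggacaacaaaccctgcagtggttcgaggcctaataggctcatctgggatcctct
Il1rn, chr2:24336610-24336909, plus strand: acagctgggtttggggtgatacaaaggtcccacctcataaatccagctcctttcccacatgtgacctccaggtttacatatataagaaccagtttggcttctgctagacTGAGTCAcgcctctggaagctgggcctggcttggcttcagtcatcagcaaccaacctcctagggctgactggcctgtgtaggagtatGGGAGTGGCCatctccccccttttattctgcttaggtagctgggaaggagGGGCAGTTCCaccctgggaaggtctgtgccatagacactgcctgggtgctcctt
Il1r2, chr1:40085843-40086142, plus strand: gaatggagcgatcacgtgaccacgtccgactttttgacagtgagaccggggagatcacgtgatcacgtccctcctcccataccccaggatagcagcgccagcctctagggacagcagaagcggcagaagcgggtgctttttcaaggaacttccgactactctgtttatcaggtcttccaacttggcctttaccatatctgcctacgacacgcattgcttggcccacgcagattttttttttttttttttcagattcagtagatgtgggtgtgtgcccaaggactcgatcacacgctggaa
Il1rap, chr16:26581455-26581754, plus strand: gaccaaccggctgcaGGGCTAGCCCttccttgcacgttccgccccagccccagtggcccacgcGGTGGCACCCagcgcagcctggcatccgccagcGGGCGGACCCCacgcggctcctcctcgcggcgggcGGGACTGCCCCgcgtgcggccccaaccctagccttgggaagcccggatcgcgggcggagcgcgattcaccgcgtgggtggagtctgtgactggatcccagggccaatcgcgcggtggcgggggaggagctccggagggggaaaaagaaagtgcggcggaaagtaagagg
Nlrp3, chr11:59542436-59542735, plus strand: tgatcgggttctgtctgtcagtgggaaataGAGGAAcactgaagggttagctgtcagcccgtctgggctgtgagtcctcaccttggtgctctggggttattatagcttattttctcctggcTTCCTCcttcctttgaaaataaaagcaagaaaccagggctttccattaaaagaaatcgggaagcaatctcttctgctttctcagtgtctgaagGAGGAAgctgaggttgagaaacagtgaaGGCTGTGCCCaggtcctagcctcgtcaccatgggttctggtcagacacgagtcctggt
The windows of Il1a and Il1b both held the TATA box letters TATAAA, with the first base at position -32 and -31 from the start, and 13.6% of all 32851 windows of this length held that motif. The Il1a window also held 1 PU.1 match and 1 AP-1 match. The letters GAGGAA, of the PU.1 motif, matched 3 times, counting both strands, in the Nlrp3 window shown, beside a background of 28.3% of windows with at least 1 match. The other Nlrp3 window, not shown, held no PU.1 match. The NF-kB letters GGGNNNNNCC, present in 50.8% of all windows, matched 2 times in the Il1rn window and 6 times in the Il1rap window, where some matches overlap one another, and once in the Nlrp3 window. The AP-1 letters TGANTCA, in 7.81% of all windows, matched once in the Il1rn window. None of these letters was found in the Il1r2 window, and the C/EBP letters TTGCNNAA, in 10.8% of all windows, were in none of the 6. A match is a string of letters and not a measured binding site. In mm10, Il1a spans chr2:129299610-129309972 and Il1b spans chr2:129364570-129371139, both on the minus strand of the same chromosome. Il1rn spans chr2:24336853-24351494, Il1r2 spans chr1:40074079-40125231 and Il1r1 spans chr1:40225080-40317257, all on the plus strand. Il1rap spans chr16:26581704-26730117, Il18 spans chr9:50554827-50581840, Casp1 spans chr9:5298517-5307265 and Nlrp3 spans chr11:59541568-59566956, also on the plus strand. Counts at the 3′ end do not tell the transcripts of the different start sites apart.

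The files held 28429 kept cells with between 27686362 and 56715743 unique molecular identifiers (UMIs) per tumor and a median of 3721 to 4657 UMIs per cell. Gates on lineage markers, none of them a member, placed 21779 cells, 76.6%, in 17 cell types. A further 3430 cells that passed a lineage gate but exceeded a limit on markers of another lineage were left out. The B cell and plasmacytoid dendritic cell gates set no limit on phagocyte markers, so cells that also passed the phagocyte gate stayed in them. Scrublet, a doublet caller, marked 23.5% of the cells of run 1 and 10.8% of run 2, and among gated cells 13.4% and 5.47%. Only 60 barcode sequences occurred in both runs. The 178 cells of the B cell gate carried the 7 phagocyte gate markers at 138 UMIs per 10000, beside 158 in Ly6c2 monocytes. These markers are Csf1r, Lyz2, Cst3, Ctss, Flt3, H2-Ab1 and Cd74. H2-Ab1 and Cd74 serve antigen presentation, and the sum was not split by gene, so it cannot tell B cells from phagocytes here. The values of this gate are therefore given without being read as B cell levels. Neutrophils were cells rich in S100a8 and S100a9, and their other markers, Retnlg, Csf3r, Cxcr2 and G0s2, summed to 147 UMIs per 10000 there and to at most 4.43 in the other types tabulated beside them. Csf1r was counted in Ly6c2 monocytes at 2.21 and 2.29 UMIs per 10000 in the Csf1rfl/fl tumors and at 1.45 and 1.33 in the Lyve1CreCsf1rfl/fl tumors, and in C1q macrophages at 1.77 and 2.45 against 1.54 and 1.41. Csf1r is itself a phagocyte gate marker, so cells were admitted partly on it, and its levels by genotype are not read as a test of its removal. The transcript was present in the gated cells of both genotypes, and a 3′ count does not show whether the floxed part was removed. Lyve1 itself had 2 UMIs in all gated C1q macrophages, 4 in neutrophils and none in Ly6c2 monocytes.

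Il1b was by far the most abundant member. Its level, the UMIs of the gene per 10000 UMIs of a cell type in a tumor, in neutrophils was 108 in the Csf1rfl/fl tumor of run 1 and 158 in that of run 2, and 151 and 136 in the Lyve1CreCsf1rfl/fl tumors (138 ± 22.3, SD, n = 4 tumors). This was 10.8 times the mean of Arg1 macrophages, the next in the order apart from the B cell gate (13.95, against which it was 9.92 times), and the range in neutrophils overlapped that of none of the other 16 types. In Ly6c2 monocytes the 4 tumors gave 10.54, 13.3, 14.4 and 10.8 in the same order, a mean of 12.2 ± 1.91. C1q macrophages gave 7.81, 9.01, 16.2 and 8.40, and Arg1 macrophages gave 18.3, 9.63, 17.2 and 6.03. The macrophage and monocyte ranges overlapped, and these types could not be placed in an order beyond their spread. Cd209a dendritic cells had 9.85 ± 3.88, mature dendritic cells 6.80 ± 1.04 and cDC1 2.74 ± 0.778 UMIs per 10000. Per cell, neutrophils held 34.5 Il1b UMIs on average (27.0 to 43.4 over the tumors) and Ly6c2 monocytes 6.51, although neutrophils had a median of only 2076 UMIs in all, against 4924.

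**Figure D1:**
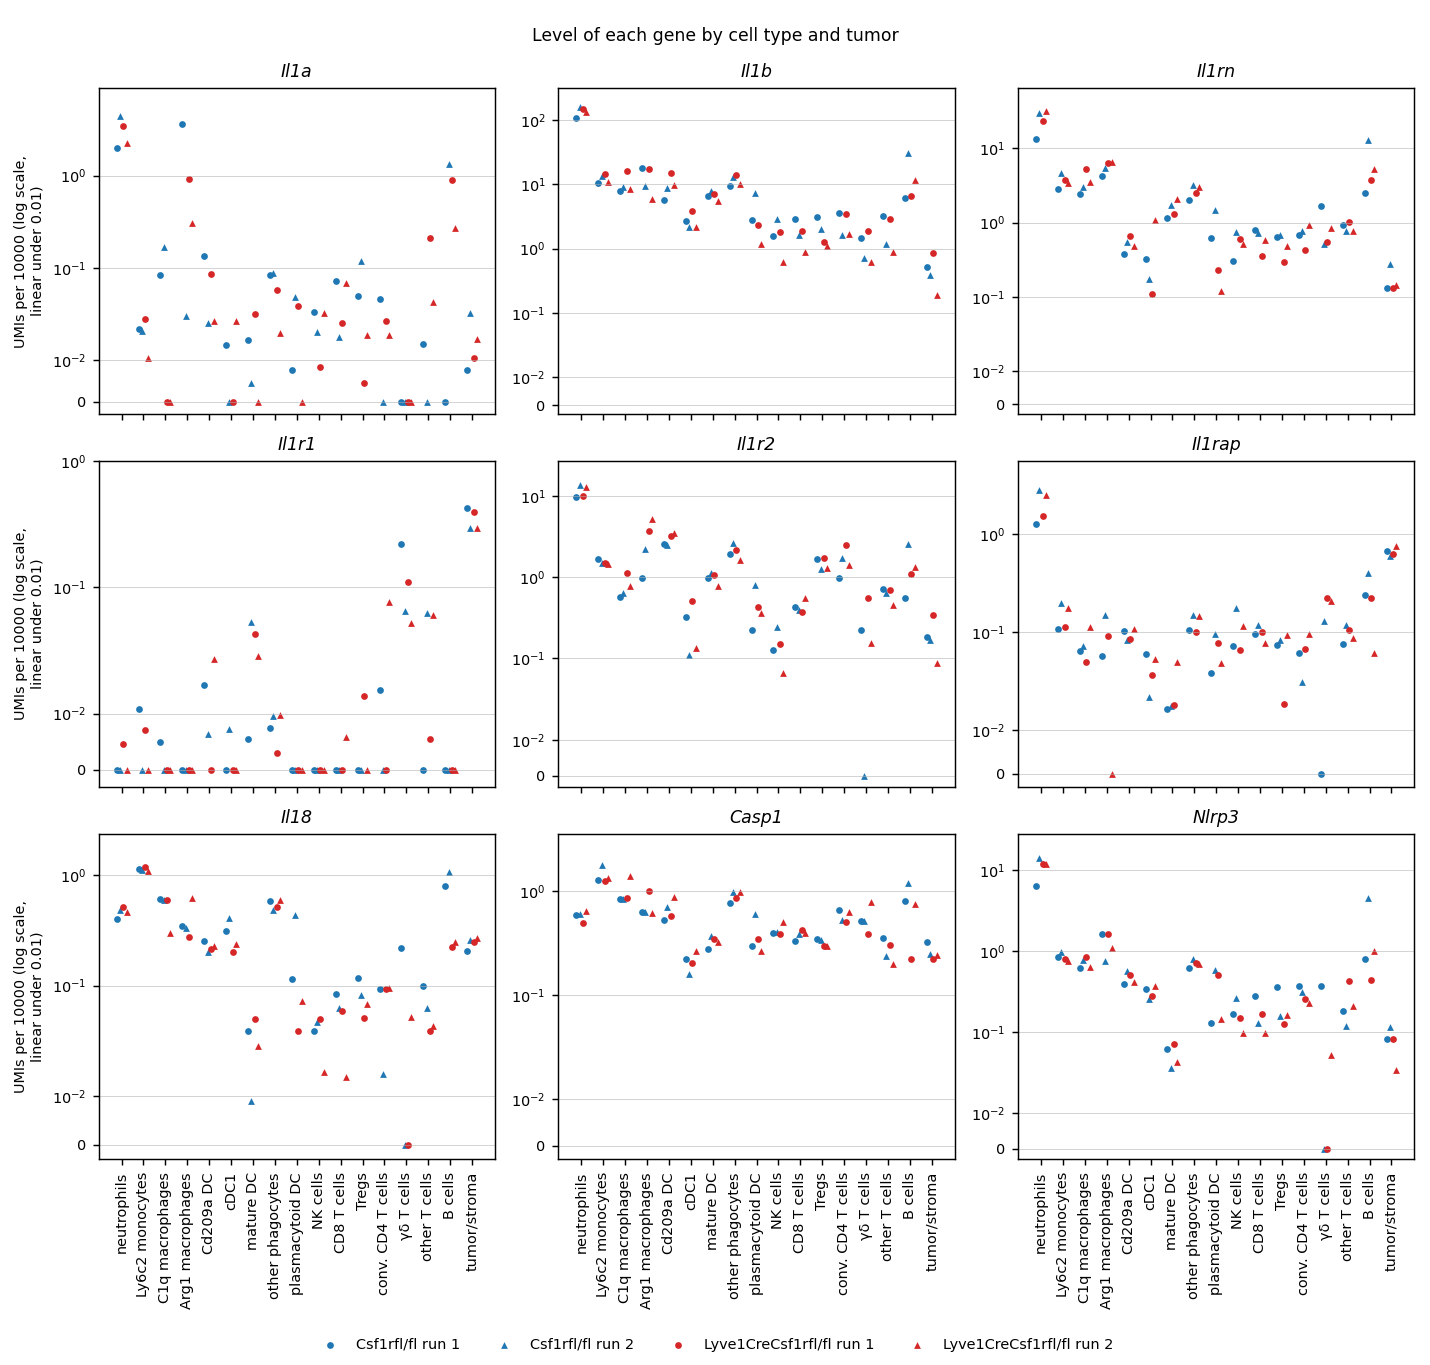
Level of each of the 9 genes, in UMIs per 10000 UMIs of the cell type in a tumor (vertical axis, logarithmic, linear under 0.01), in 17 gated cell types (horizontal axis), with 1 point per tumor, blue for Csf1rfl/fl, red for Lyve1CreCsf1rfl/fl, circles for run 1 and triangles for run 2. Neutrophils stand at the top for Il1a, Il1b, Il1rn, Il1r2, Il1rap and Nlrp3, Ly6c2 monocytes for Il18 and Casp1, and tumor and stromal cells for Il1r1.

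Il1b was also seen in the largest share of neutrophils at a fixed depth. With every cell thinned to 1000 UMIs, 95.6% of neutrophils (93.6 to 97.3% over the 4 tumors) had an Il1b UMI, against 49.1% of Ly6c2 monocytes, 46.6% of C1q macrophages and 7.43% of CD8 T cells, and the shares without thinning were 97.3%, 75.0%, 76.6% and 22.4%. Thinning left out 132 neutrophils, 4 Ly6c2 monocytes, 5 C1q macrophages and 7 CD8 T cells that had fewer UMIs. CD8 T cells, which are not a usual source of Il1b, had a median depth of 4711 UMIs and neutrophils 2076, and how much of the CD8 T cell share came from free RNA or mixed droplets was not tested. Of all Il1b UMIs of a tumor, neutrophils held 51.0 ± 8.68% (41.6 to 61.1%) while making up 12.5 to 21.1% of its kept cells. Ly6c2 monocytes held 6.22%, other mononuclear phagocytes 5.28%, and cells left out of the gates 29.5%.

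In lymphocytes, the Il1b level was lower once cells called doublets were left out. CD8 T cells had 2.94, 1.64, 1.88 and 0.881 Il1b UMIs per 10000 in the 4 tumors, and leaving out the cells called doublets brought the mean from 1.84 to 0.466. The same step brought Tregs from 1.89 to 0.483 and plasmacytoid dendritic cells from 3.43 to 1.09, whereas neutrophils went from 138 to 149 and Ly6c2 monocytes from 12.2 to 11.8. For every 100 UMIs of S100a8 and S100a9 together, neutrophils held 9.51 Il1b UMIs, CD8 T cells 32.6 (17.2 without called doublets), Ly6c2 monocytes 242 and C1q macrophages 347. The gates bound this denominator, since neutrophils needed at least 200 of these UMIs per 10000, T cells and NK cells had to be under 200 and phagocytes under 50. The order of these ratios was thus partly set by the gates, and no source of Il1b is read from it. The part of mixed droplets in the lymphocyte values was not tested beyond these numbers.

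**Figure D2:**
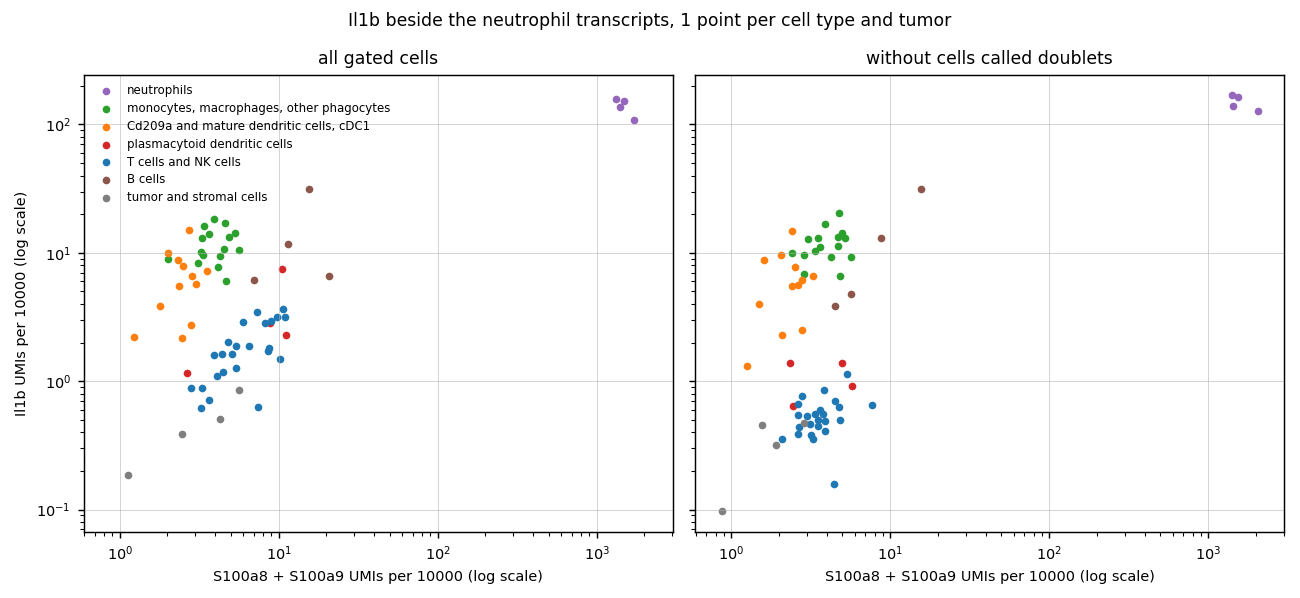
Il1b level (vertical axis) against the summed level of S100a8 and S100a9 (horizontal axis), both in UMIs per 10000 on log scales, with 1 point per cell type and tumor, for all gated cells (left) and without cells called doublets by Scrublet (right). Between the panels the mean Il1b of CD8 T cells goes from 1.84 to 0.466 and that of Ly6c2 monocytes from 12.2 to 11.8.

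Il1a, the membrane-associated partner of Il1b, was rarer and more restricted. Neutrophils held 1.99 and 4.40 UMIs per 10000 in the Csf1rfl/fl tumors and 3.45 and 2.27 in the Lyve1CreCsf1rfl/fl tumors, a mean of 3.03 ± 1.11. Arg1 macrophages followed with 3.56, 0.0301, 0.917 and 0.309, from 132 cells in all, so that their range overlapped that of neutrophils. No other type, apart from the B cell gate at 0.626, had a mean above 0.0682. C1q macrophages had 0.0845 and 0.167 in the Csf1rfl/fl tumors and no UMI in either Lyve1CreCsf1rfl/fl tumor, where they numbered 85 and 42 cells.

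Il1rn, the antagonist, was highest in the same cells as Il1b. Neutrophils held 13.3, 30.0, 23.7 and 32.5 UMIs per 10000 in the 4 tumors (24.9 ± 8.57), 4.41 times Arg1 macrophages, the next apart from the B cell gate (6.10), and apart from all 16 other types. Arg1 macrophages had 5.64 ± 1.04, Ly6c2 monocytes 3.71 ± 0.774 and C1q macrophages 3.59 ± 1.22, with overlapping ranges. Mature dendritic cells had 1.57 ± 0.419 and Cd209a dendritic cells only 0.519.

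Agonist and antagonist differed in their balance between the cell types. In neutrophils the ratio of Il1b to Il1rn UMIs was 8.15, 5.28, 6.39 and 4.17 (5.997 ± 1.70), with exact binomial 95% intervals no wider than 7.92 to 8.39 in a tumor. Ly6c2 monocytes ranged from 2.82 to 3.77 and C1q macrophages from 2.38 to 3.18, both below every neutrophil value. Cd209a dendritic cells had the highest mean ratio, 15.3 to 22.4 (18.5 ± 3.47). The mean was 42.3 with doubled gate thresholds, over the 3 tumors that then had an Il1rn UMI in these cells, and 35.7 ± 13.8 (20.1 to 51.2) without called doublets. The range of cDC1, 2.03 to 34.7 with a mean of 14.4, contained theirs. In both runs the neutrophil ratio was lower in the Lyve1CreCsf1rfl/fl tumor than in the Csf1rfl/fl tumor, 6.39 against 8.15 and 4.17 against 5.28. The same held in C1q and Arg1 macrophages, mature dendritic cells, NK cells, Tregs, other T cells and the B cell gate. The ratio was higher in both runs in Ly6c2 monocytes, Cd209a dendritic cells and plasmacytoid dendritic cells, and mixed in the rest. Without called doublets it was lower in both runs in Cd209a dendritic cells, 42.5 against 51.2 and 20.1 against 29.0. Tregs and mature dendritic cells were then mixed, and plasmacytoid dendritic cells had no Il1rn UMI in the Lyve1CreCsf1rfl/fl tumor of run 1. Neutrophils stayed lower in both runs, and Ly6c2 monocytes and cDC1 were higher in both. With 2 tumors per genotype no exact test can go below p = 0.333. Counts of 3′ ends do not scale with transcript length, but capture can differ between the 2 genes, so that ratios compare cell types and not absolute amounts. Intervals cover counting error only.

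**Figure D3:**
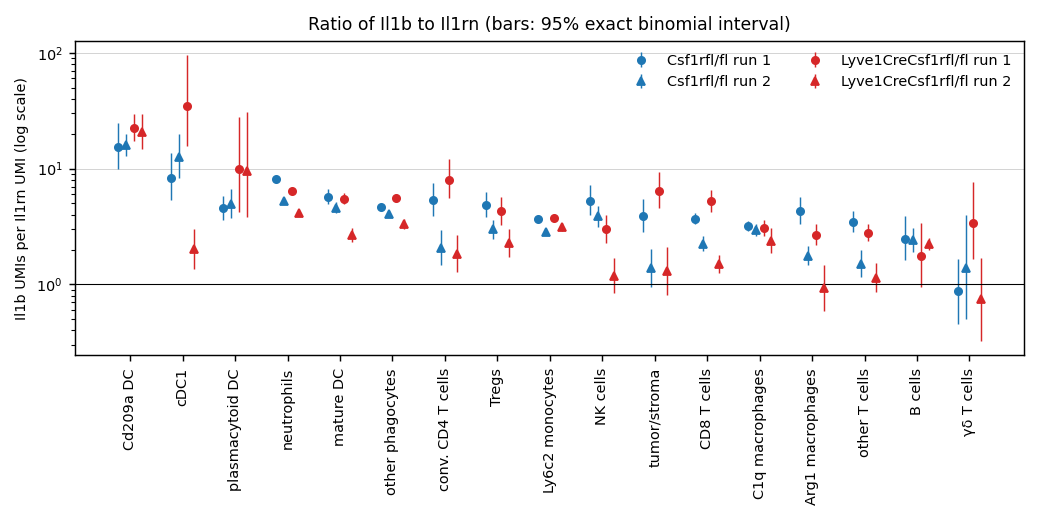
Il1b UMIs per Il1rn UMI (vertical axis, logarithmic) in 17 cell types, ordered by the mean, with 1 point per tumor and exact binomial 95% intervals, and the line at 1 for equal counts. Cd209a dendritic cells range from 15.3 to 22.4, neutrophils from 4.17 to 8.15 and C1q macrophages from 2.38 to 3.18.

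The decoy and the signalling receptor were highest in different cells. Il1r2, the decoy, was at 9.72, 13.5, 10.1 and 12.9 UMIs per 10000 in neutrophils (11.5 ± 1.93), apart from all other types. Arg1 macrophages had 3.04 ± 1.86 and Cd209a dendritic cells 2.94 ± 0.465. Among T cells, Tregs held 1.67, 1.25, 1.71 and 1.30, and conventional CD4 T cells 1.65 ± 0.641, whose ranges overlapped. Il1r1, which transmits the signal, had only 487 UMIs in gated cells, of which tumor and stromal cells held 399. Those cells, 233 that passed the CD45+ sort, had 0.427, 0.297, 0.393 and 0.293 UMIs per 10000 (0.352 ± 0.0678), and 37.8% of them were called doublets at a median of 46047 UMIs. γδ T cells came next with 0.112 from 7 UMIs, or 0.0624 without called doublets, and mature dendritic cells had 0.0325 from 29 UMIs. Neutrophils had 2 Il1r1 UMIs. NK cells, plasmacytoid dendritic cells, Arg1 macrophages and the B cell gate had none. For a count of 0, 3 counts are about the upper 95% limit, a level of 0.00525 in NK cells and 0.0380 in Arg1 macrophages.

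Il1rap, the accessory chain, was present where Il1r1 was and also where it was not. Neutrophils had 1.26, 2.79, 1.55 and 2.49 UMIs per 10000 (2.02 ± 0.734), and tumor and stromal cells had 0.666, 0.599, 0.629 and 0.752. Both ranges stood apart from each other and from all types below. Apart from the B cell gate at 0.232, every remaining type had a mean of 0.149 or less.

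Il18 and Casp1 were highest in other cells than Il1b, and Nlrp3 in the same. Il18 was highest in Ly6c2 monocytes, with 1.15, 1.13, 1.19 and 1.09 UMIs per 10000, a mean 2.09 times that of other mononuclear phagocytes, the next apart from the B cell gate. C1q macrophages had 0.524 ± 0.151 and neutrophils 0.467 ± 0.0503. Casp1 was present in every type, from a mean of 0.214 in cDC1 upward, and was highest in Ly6c2 monocytes with 1.28, 1.79, 1.26 and 1.33, which overlapped C1q macrophages (0.992 ± 0.281). Neutrophils had 0.583 ± 0.0623 of Casp1, a range that overlapped those of the T cell types above and below. Nlrp3, in contrast, was at 6.42, 14.1, 11.8 and 11.8 in neutrophils (11.04 ± 3.27) and 0.843 ± 0.0932 in Ly6c2 monocytes. Neutrophils thus held the sensor at 8.75 times the mean of Arg1 macrophages, the next apart from the B cell gate, while holding less of the protease per 10000 UMIs than monocytes. At 1000 UMIs per cell, 52.0% of neutrophils had an Nlrp3 UMI, against 1.19% of CD8 T cells, and 68.7% and 4.72% without thinning.

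The 5 contrasts between cell types were tested with edgeR's quasi-likelihood test on UMIs summed per tumor and type, with the tumor as a block, and p-values were adjusted by Benjamini-Hochberg over 11350 genes. Neutrophils against Ly6c2 monocytes had 6 of 9 members higher in neutrophils and none lower. Of all genes tested, 33.3% were higher in neutrophils and 29.3% in Ly6c2 monocytes. The log2 fold changes were 4.67 ± 0.39 (SE, adjusted p = 5.2e-17) for Il1b, 8.34 ± 0.47 for Il1a, 3.88 ± 0.30 for Il1rn, 4.05 ± 0.24 for Il1r2, 4.86 ± 0.18 for Il1rap and 4.86 ± 0.26 for Nlrp3, and the median of the members was 4.05 beside 0.02 over all genes. Il18 (-0.16) and Casp1 (-0.17) did not pass. The scaling matters here. S100a8 and S100a9 took 1486 of 10000 UMIs in neutrophils, and the TMM scaling of edgeR sets the typical gene near 0, whereas on library totals the median gene was at -1.04 and the calls split into 1621 higher and 7067 lower instead of 3782 and 3328. On that scale, which is that of the levels, Il1b was at 3.52, and Il18 and Casp1 were lower in neutrophils, by -1.29 each (adjusted p = 2.1e-09 and 6.6e-14, edgeR).

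Against C1q macrophages, 8 of 9 members were higher in neutrophils and none was lower, where 30.2% of all genes were higher in neutrophils and 31.4% in C1q macrophages. Il1b differed by 5.09 ± 0.40 (adjusted p = 6.4e-18), Il1rap by 6.03 ± 0.25, Il1r2 by 5.26 ± 0.28 and Nlrp3 by 5.27 ± 0.30 on the log2 scale. Il1r1 did not pass. The direction for Il18 and Casp1 depended on the scaling. Il18 was at 1.01 ± 0.23 with TMM and -0.24 on library totals (adjusted p = 0.32), and Casp1 at 0.57 ± 0.16 with TMM and -0.67 on library totals (adjusted p = 8.6e-05), where the median of all genes was -1.32. Leaving out the Csf1rfl/fl tumor of run 2 gave 0.39 for Casp1 (adjusted p = 0.071). On library totals the calls over all genes were 1493 higher and 7197 lower, against 3427 and 3564. The other 6 members were higher on both scales, with 3.81 for Il1b on library totals.

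**Figure D4:**
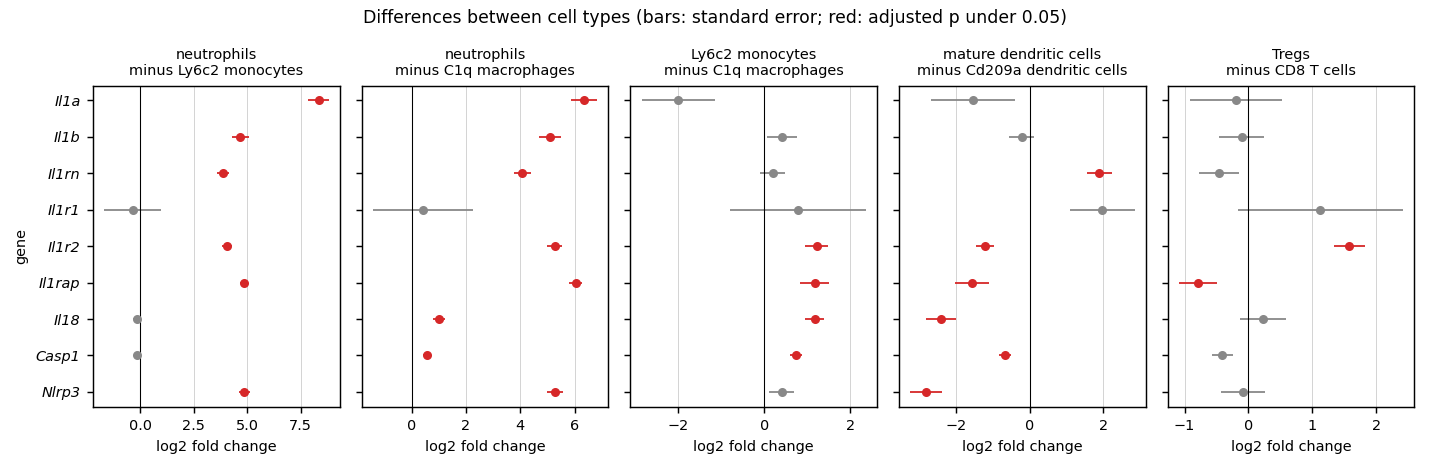
Log2 fold change of each gene (horizontal axis) in the 5 contrasts between cell types, with bars of 1 standard error, red where the adjusted p of edgeR with TMM scaling was under 0.05. In the first panel 6 of the 9 genes are red and to the right of 0, and in the last 1 is red on each side.

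Ly6c2 monocytes against C1q macrophages had 4 members higher in the monocytes and none lower, beside 11.5% of all genes higher and 11.8% lower. These were Il1r2 at 1.22 ± 0.27, Il1rap at 1.17 ± 0.34, Il18 at 1.17 ± 0.21 and Casp1 at 0.74 ± 0.15. Il1b (0.42 ± 0.35, adjusted p = 0.43) and Il1rn (0.19 ± 0.29) did not pass. Il1rap no longer passed with doubled gates (1.11, adjusted p = 0.12) or without the Csf1rfl/fl tumor of run 2 (0.97, adjusted p = 0.092). The split of all calls was 1308 higher and 1335 lower with TMM, 1012 and 1847 with DESeq2 and 919 and 1813 on library totals, and the 4 members passed under each.

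Mature dendritic cells, marked by Ccr7, Fscn1 and Ccl22, differed from Cd209a dendritic cells in 6 of 9 members. Il1rn was higher by 1.90 ± 0.34 (adjusted p = 3.6e-06), while Nlrp3 (-2.81 ± 0.44), Il18 (-2.40 ± 0.41), Il1rap (-1.55 ± 0.46), Il1r2 (-1.22 ± 0.24) and Casp1 (-0.67 ± 0.17) were lower. Of all genes, 26% were higher in mature dendritic cells and 22.5% in Cd209a dendritic cells. The mature cells thus held the antagonist at a higher and the inflammasome genes at a lower level, while Il1b differed by -0.21 ± 0.35 (adjusted p = 0.65). Nlrp3 in mature dendritic cells rested on 45 UMIs in 1557 cells and Il18 on 27. On library totals the calls were 1918 higher and 3770 lower, against 2948 and 2553, with the 6 members called in the same directions.

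Tregs against CD8 T cells had 1 member higher and 1 lower, beside 9.92% and 11.3% of all genes. Il1r2 was higher in Tregs by 1.58 ± 0.25 on the log2 scale (adjusted p = 4.1e-07), and it stayed between 1.45 and 1.91 and passed in each of the 10 alternatives. Its levels were 1.25 to 1.71 in Tregs and 0.437 on average in CD8 T cells, and without called doublets 1.45 and 0.349, so that it did not follow the pattern of Il1b. At 1000 UMIs, 12.3% of Tregs and 3.40% of CD8 T cells had an Il1r2 UMI, and 35.5% and 13.9% without thinning. Il1rap was lower by -0.79 ± 0.30 (adjusted p = 0.044), a call lost in 8 of the 10 alternatives, among them leaving out either Csf1rfl/fl tumor or the Lyve1CreCsf1rfl/fl tumor of run 1, where the adjusted p reached 0.45. Calls over all genes were 1126 higher and 1279 lower with TMM, and 1833 and 792 on library totals.

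Other genes of the pathway were counted from lists of their own. In neutrophils against Ly6c2 monocytes, 12 of 13 genes of an NF-kB responsive list were higher and 1, Il6, was lower (-1.17 ± 0.42), beside 33.3% and 29.3% of all genes. DESeq2 did not call Il6 (-1.27 ± 0.73, adjusted p = 0.12). Cxcl3 (8.08 ± 0.48) and Cxcl2 (6.94 ± 0.62), which encode neutrophil-attracting chemokines, and Ptgs2 (5.84 ± 0.43), which encodes COX-2, had the largest fold changes of the list. Of 18 genes of IL-1 receptor signalling 12 were higher and 1 lower, with the kinase gene Irak2 at 3.04 ± 0.15 and the ubiquitin ligase gene Traf6 at 1.84 ± 0.17. Of 19 inflammasome genes tested 9 were higher and 5 lower. Nlrp12, a sensor of the same family as Nlrp3, was at 7.92 ± 0.34, and Pycard, the adaptor that links NLRP3 to caspase-1, at -2.29 ± 0.16. Of 6 other family genes tested 5 were higher, among them Il1f9, which encodes IL-36γ, at 8.56 ± 0.35. The medians were 4.296 for the NF-kB list, 0.84 for signalling, 0.04 for the inflammasome and 3.08 for the family, beside 0.02 over all genes. On library totals the median of all genes was -1.04, and 1621 of 11350 genes were higher and 7067 lower. The NF-kB list still had 10 genes higher and 2 lower and the family 4 higher and none lower. Signalling turned to 3 higher and 10 lower and the inflammasome to 4 higher and 12 lower, near the split of all genes. Irak2 (1.90), Traf6 (0.72), Nlrp12 (6.80) and Pycard (-3.37) kept their direction and call. Against C1q macrophages Pycard was again lower in neutrophils (-2.34 ± 0.17 with TMM, -3.54 on library totals).

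The pathway lists differed in the other contrasts as well. In mature against Cd209a dendritic cells, where 26% of all genes were higher and 22.5% lower, 12 of 18 signalling genes were higher and 2 lower, with Nfkb2 at 1.88 ± 0.14 and Myd88, the adaptor of the receptor, at -1.52 ± 0.14. In the same contrast 9 of 19 inflammasome genes were lower and 2 higher, with Pycard at -1.56 ± 0.16, and Il18bp, which encodes the soluble binder of IL-18, was at 2.21 ± 0.24. In Tregs against CD8 T cells, Il1rl1, the receptor for IL-33, was higher (1.45 ± 0.29) and the IL-18 receptor genes Il18rap (-2.76 ± 0.19) and Il18r1 (-1.07 ± 0.15) were lower. In Ly6c2 monocytes against C1q macrophages, where 11.5% of all genes were higher and 11.8% lower, 6 of 18 signalling genes were higher, with Myd88 at 0.78 ± 0.13. Of 19 inflammasome genes 6 were higher, among them Mefv, which encodes pyrin (1.13 ± 0.22), and Casp4 (0.93 ± 0.19), and 1, P2rx7, was lower (-1.02 ± 0.26). On library totals 2 were higher and 2 lower, beside 919 and 1813 of 11350 genes. The genes named here kept their direction and call on that scale. In mature dendritic cells 8 signalling genes were then higher and 3 lower. No inflammasome gene was higher there and 14 were lower, beside 1918 and 3770 of all genes.

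The comparison of genotypes asks whether removing Csf1r in the LYVE-1 lineage changed these genes in the cells that remained. No member passed in any of the 102 pairs of member and cell type tested with edgeR without a block (10 at an unadjusted p under 0.05, smallest adjusted p = 0.15), and DESeq2 called none either (7 at an unadjusted p under 0.05). Over all 17 types, 0.0124% of gene and type pairs were called. At an unadjusted p under 0.05 there were 2691 of 120895 pairs over all genes with edgeR and 872 of 119107 with DESeq2. In neutrophils, Il1b differed by 0.25 ± 0.44, Il1rn by 0.51 ± 0.44, Nlrp3 by 0.34 ± 0.41, Il1r2 by 0.12 ± 0.35 and Il1a by 0.00 ± 0.41 on the log2 scale, Lyve1CreCsf1rfl/fl over Csf1rfl/fl. Within run 1 Il1b was higher in the Lyve1CreCsf1rfl/fl neutrophils, by 0.49, and within run 2 lower, by -0.22. Il1rn was higher in both runs, by 0.84 and 0.12. In Ly6c2 monocytes Il1b differed by 0.09 ± 0.28 and Il1rn by -0.05 ± 0.26. Leaving out any single tumor gave calls in other cell types, 3 without the Csf1rfl/fl tumor of run 1, 6 without that of run 2, and 4 and 2 without the Lyve1CreCsf1rfl/fl tumors of runs 1 and 2. Over all genes the share called rose too, to 0.153%, 0.659%, 0.175% and 0.174% of pairs in the same order. In summed counts, changed cells and a changed mix of cells within a gate cannot be told apart.

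With the Chromium run as a replicate block, 7 of the 102 pairs passed, 1 higher and 6 lower, beside 0.572% of all pairs. The single gene that was higher was Il1rn in C1q macrophages, at 0.68 ± 0.18 (adjusted p = 0.023, edgeR), with levels of 2.46 and 3.07 in the Csf1rfl/fl tumors and 5.29 and 3.53 in the Lyve1CreCsf1rfl/fl tumors. The lower ones were Il1b in plasmacytoid dendritic cells (-1.50 ± 0.19), NK cells (-0.95 ± 0.20), CD8 T cells (-0.76 ± 0.11) and Tregs (-1.11 ± 0.13), and Il1rn in plasmacytoid dendritic cells (-2.68 ± 0.40) and Tregs (-0.78 ± 0.19). In NK cells the runs disagreed for Il1b, with log2 differences of 0.18 in run 1 and -2.24 in run 2. In the same fit S100a8 and S100a9 were lower in Tregs (-0.59 and -0.55) and CD8 T cells (-0.55 and -0.53), and S100a9 in plasmacytoid dendritic cells (-0.95), whereas in NK cells they were at 0.23 and 0.12.

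With called doublets left out as well, none of the 6 lower pairs passed, and Il1rn in plasmacytoid dendritic cells had too few counts to be tested. Il1b was then at 0.14 ± 0.21 in Tregs, 0.33 ± 0.20 in CD8 T cells, -0.18 ± 0.29 in plasmacytoid dendritic cells and -0.62 ± 0.25 in NK cells, while S100a8 in Tregs was at 0.05. Of 86 pairs tested 4 passed, all higher in Lyve1CreCsf1rfl/fl tumors, beside 0.217% of all gene and type pairs. They were Il1b (0.66 ± 0.17, adjusted p = 0.017) and Il1rn (0.79 ± 0.19, adjusted p = 0.0047) in C1q macrophages, Il1b in Cd209a dendritic cells (0.68 ± 0.11, adjusted p = 4.6e-06) and Il1rn in other T cells (1.21 ± 0.25, adjusted p = 0.038). For Il1b in C1q macrophages the runs differed, with 16.8 against 6.84 UMIs per 10000 in run 1 and 9.67 against 9.96 in run 2. For Il1b in Cd209a dendritic cells the difference lay mostly in run 1, with 14.7 against 6.15 there and 9.68 against 8.82 in run 2. Of the 7 pairs called under the block, Il1rn in C1q macrophages was the one that passed both with and without called doublets, on 42 to 271 cells per tumor. Neutrophil transcripts also lay higher there. Without called doublets, S100a8 and S100a9 together were at 2.88 and 2.40 UMIs per 10000 in C1q macrophages of the Csf1rfl/fl tumors and 3.92 and 2.89 in the Lyve1CreCsf1rfl/fl tumors, and in other T cells at 4.499 and 2.81 against 5.34 and 3.40, higher in both runs in both types. In the blocked fit neither gene passed (0.40 and 0.36 in C1q macrophages, 0.25 and 0.36 in other T cells), and their part in the Il1rn and Il1b values was not tested.

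**Figure D5:**
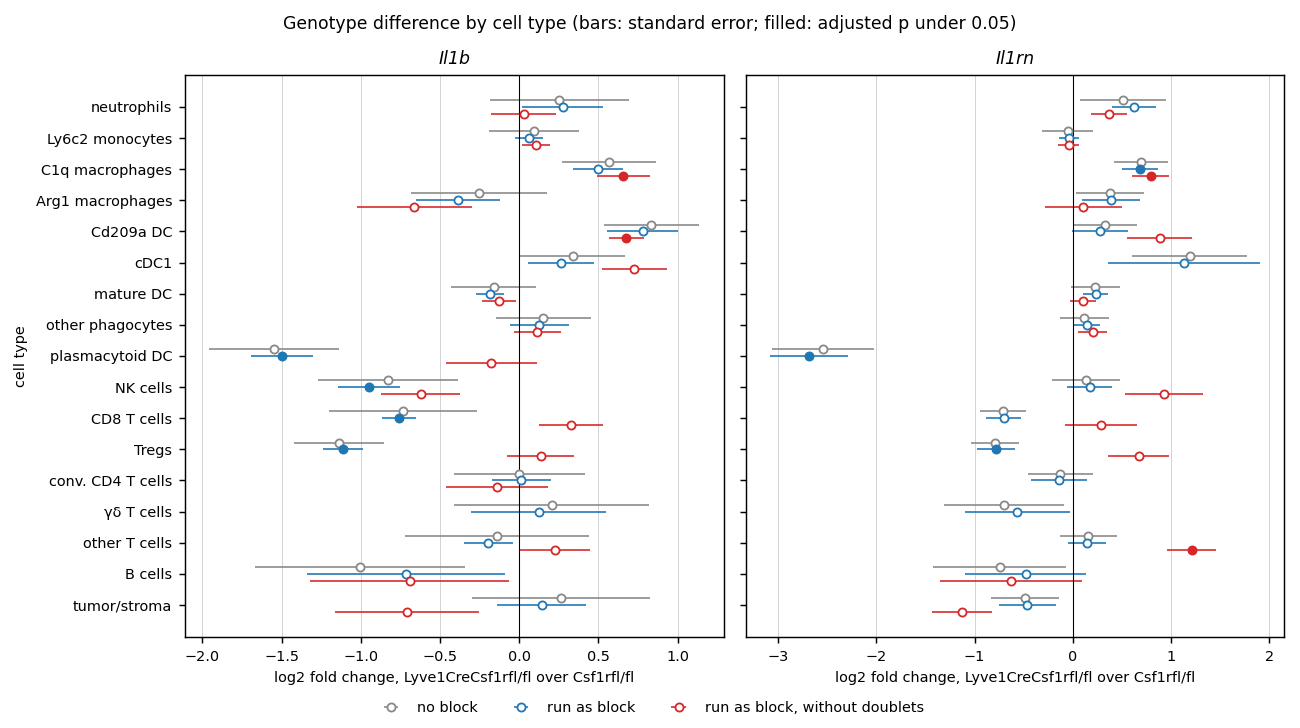
Log2 fold change of Il1b (left) and Il1rn (right), Lyve1CreCsf1rfl/fl over Csf1rfl/fl, in each cell type, with bars of 1 standard error, without a block (grey), with the Chromium run as a block (blue) and with the block and without cells called doublets (red), and filled points where the adjusted p was under 0.05. In Tregs, Il1b goes from -1.11 with the block to 0.14 once called doublets are left out, and in C1q macrophages Il1rn goes from 0.68 to 0.79.

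Whether the genotype difference itself differed between neutrophils, Ly6c2 monocytes and C1q macrophages was tested by the interaction of genotype and cell type. No member passed in the 3 contrasts (edgeR, 7 of 24 pairs at an unadjusted p under 0.05), beside 0.0285% of all gene and contrast pairs. At that unadjusted p there were 696 of 10532 genes for neutrophils and Ly6c2 monocytes and 693 for neutrophils and C1q macrophages. For Ly6c2 monocytes and C1q macrophages there were 483. Without the Csf1rfl/fl tumor of run 2, 3 pairs passed, Il1rn and Nlrp3 between neutrophils and Ly6c2 monocytes and Il1a between neutrophils and C1q macrophages, while the share called over all genes was then 0.961%. The fitted interaction of Il1a between neutrophils and C1q macrophages, 7.71 ± 2.03 (adjusted p = 0.19), rests on the 2 tumors with no Il1a UMI in C1q macrophages, so its size is set by the prior count of the fit. Of the pathway lists, none of the 47, 204, 244 and 186 pairs of gene and cell type tested for the other family genes, inflammasome, signalling and NF-kB lists passed between the genotypes without a block (2, 4, 2 and 18 at an unadjusted p under 0.05, edgeR). Over all genes 2691 of 120895 pairs had an unadjusted p under 0.05 in that fit. The lists were not fitted with the run as a block.

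Likeness of pattern was described by Pearson's r of log2 levels over the 17 types, whose points share tumors and runs. The genes most like Il1b were Ist1, 1700019L13Rik and Mcl1, a survival factor of neutrophils, each with r = 0.96. Those most like Il1rn were A930007I19Rik (0.98), Tarm1 (0.97) and Rhov (0.96), and those most like Nlrp3 were Ccr1 (0.95), Rab7 (0.94) and Cd300lf (0.94). Il18 was most like Nadk (0.95), Casp1 most like Oas1a (0.90), Il1r2 most like 1700019L13Rik (0.88), Il1rap most like Sde2 (0.90) and Il1a most like Gm37800 (0.92). Among the members, Il1b and Il1rn had r = 0.90 and Casp1 and Il1rap r = 0.14. Il1r1, with under 500 UMIs in gated cells, was left out.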

How the data were processed

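Tumors were dissociated and sorted for CD45+ cells, and 2 Chromium runs were processed by the authors with Cell Ranger 6.0.1 on mm10 and with Seurat. The deposited table holds raw UMI counts per gene for 53361 barcodes. The authors kept hashtag singlets with under 5% mitochondrial reads and left out 4 clusters specific to 1 tumor, and the cells named in their deposited table of corrected SCTransform counts, which are scores and not raw counts, were used, though not its values. Deposited hashtag counts, each scaled as a centered log ratio over all barcodes of the run, gave each cell to the tumor with the higher scaled value.

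Cells were gated on summed markers per 10000 UMIs (neutrophils at least 200 of S100a8 and S100a9, T cells 12, NK cells 20, phagocytes 50). Cells that passed gates of 2 lineages were left out, except that the B cell and plasmacytoid dendritic cell gates set no limit on phagocyte markers. No doublet caller was used in the main values, and Scrublet (scanpy 1.11.5) in an alternative. UMIs were summed per type and tumor and tested with edgeR 4.0.16 (filterByExpr, TMM, threshold 0.05) and with DESeq2 1.42.0. The edgeR genotype fits were tried on counts simulated without a difference between runs, with 200 genes changed. Without a block they recovered 76% to 100% of these genes, with 2 to 17 false calls by cell type. With the run as a block they recovered 68% to 100%, with 1 to 30 false calls, the most in Tregs. The block was not tried on counts with a run difference. The genotype fits had no block, and the contrasts between types had the tumor as a block. The blocked fit of the run is given for the members where it changes a call, since each run holds 1 tumor of each genotype. The differences between runs correlated between genotypes with r from 0.024 (B cell gate) to 0.70 (Ly6c2 monocytes). The shares at fixed depth are expected values. Named genes are all members, and from each list up to 3 genes per direction with the largest log2 fold change past the threshold. Alternatives were gates, filter, scaling, hashtag ratio, doublets and leaving out each tumor. The members, lists and tests were chosen with earlier results of these data known, and the fit with the block without doublets, the ratio of Il1b to Il1rn without doublets and the scaling by library totals were chosen after seeing the data. Precision is limited by 2 tumors per genotype.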

Additional observations from a re-analysis of the deposited data

Results flagged for a closer look

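4 differences of genotype effect between cell types stood out because both runs moved up in one type and both moved down in the other. Each is the mean log2 difference, Lyve1CreCsf1rfl/fl over Csf1rfl/fl, of the first type minus that of the second, and none of these differences was tested. Il1b differed by 2.27 between Cd209a dendritic cells (1.40 and 0.18 in runs 1 and 2) and plasmacytoid dendritic cells (-0.30 and -2.67). Il1rn differed by 1.47 between C1q macrophages (1.11 and 0.20) and Tregs (-1.14 and -0.49). Il1r2 differed by 0.88 between C1q macrophages (1.01 and 0.28) and other T cells (-0.01 and -0.46). Casp1 differed by 0.68 between C1q macrophages (0.06 and 0.73) and tumor and stromal cells (-0.57 and -0.01). Each pair was the widest among the types whose runs agreed in sign. Without called doublets the opposite movement was not seen in both runs for any of the 4. Il1rn in Tregs then went from 0.114 UMIs per 10000 in the Csf1rfl/fl tumor to 0.190 in the Lyve1CreCsf1rfl/fl tumor in run 1, and from 0.179 to 0.279 in run 2. Il1b in plasmacytoid dendritic cells was, by run, 0.915 and 1.40 against 1.40 and 0.646, Il1r2 in other T cells 0.536 and 0.614 against 0.579 and 0.475, and Casp1 in tumor and stromal cells 0.306 and 0.264 against 0.249 and 0.282, each in mixed directions.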

How the results depend on the processing

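The count of member and cell type pairs called between genotypes, 0 without a block, was 7 with the replicate block of the run, 5 with no filter on low counts, 4 with the replicate block and without Scrublet doublets, and 2 to 6 when each tumor was left out in turn (6 without the Csf1rfl/fl tumor of run 2). DESeq2, doubled gates, the stricter hashtag ratio and the removal of doublets alone called none. Members called in Tregs against CD8 T cells, 2, were 1 with no tumor block, DESeq2, doubled gates or library totals, 3 with doublets removed or no filter, and 1 to 2 when each tumor was left out. Over all genes, Tregs against CD8 T cells had 2405 of 11350 called in the main fit. There were 1605 with no tumor block, 2502 with DESeq2 and 2625 on library totals. Doubled gates gave 2016 of 10563, removed doublets 2546 of 11223 and no filter 2578 of 21655. Ly6c2 monocytes against C1q macrophages had 7 members called instead of 4 with no filter, beside 2587 of 21655 genes instead of 2643 of 11350. The interaction had 1 call with no filter, Il1a, and 0 to 3 when each tumor was left out (3 without the Csf1rfl/fl tumor of run 2). With no filter the interaction called 29 of 17939 genes for neutrophils and Ly6c2 monocytes. It called 60 for neutrophils and C1q macrophages and 17 for Ly6c2 monocytes and C1q macrophages. On library totals Il18 and Casp1 in neutrophils against C1q macrophages reversed to -0.24 and -0.67. Doubled gates moved Il1r1 in tumor and stromal cells to 0.462, Il18 in Ly6c2 monocytes to 1.34 and the ratio of Il1b to Il1rn to 3.28 in C1q macrophages and 42.3 in Cd209a dendritic cells (3 tumors, the other with no Il1rn UMI), which had 35.7 without doublets. Il18 in Ly6c2 monocytes was 1.20 as a mean over cells and 1.20 without doublets. At 2000 UMIs the share of cells with Il1b was 98.3% of neutrophils, 61.7% of Ly6c2 monocytes and 11.6% of CD8 T cells, and with Il1r2 22.0% of Tregs. The cell type with the highest level was kept for 9 of 9 members under all 3 alternatives of the levels, but of 148 levels only 104 stayed within 1.5 times with doubled gates, 133 as means over cells and 101 without doublets, where 46 were lower. Of 450 single log2 fold changes between cell types, 423 stayed on their side of the threshold, 23 of them with another sign but passing in neither fit, and of 1066 between genotypes 1040 did, 154 of them with another sign. Over all genes, the 15 genotype calls became 691 with the replicate block, 522 with no filter, 29 with DESeq2, 5 with doubled gates, 240 with the replicate block without doublets, and 195 to 836 when each tumor was left out. The causes were not tested.

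With 2 tumors per genotype an exact test of a single value cannot go below p = 0.333, and the genotype fits rest on the spread shared across genes. Il1r1, with 487 UMIs in gated cells, was tested between genotypes in 1 cell type, and Il1a in 4. Neutrophils were shallow, with 46.6% of them under 2000 UMIs. The gates placed 76.6% of kept cells, and the rest held 29.5% of the Il1b UMIs of a tumor on average.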
